A study of Sus scrofa with 2 samples.

Results

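The renin-angiotensin system genes described here are 7 named genes of the angiotensin pathway: the precursor AGT, the receptors AGTR1 and AGTR2, the enzymes ACE, ENPEP and LNPEP, and ATP6AP2, a membrane receptor of the pathway. They were taken by gene symbol, and each of the 7 has 1 entry among the 34570 genes listed for both libraries. The group was picked because AGT was among the lowest well-counted genes after SMAD4 siRNA. The difference of AGT between the libraries is therefore a description of what chose it, and every other difference comes from the same pair of libraries.

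RNA was sequenced from granulosa cells of Chinese Erhualian pigs (Sus scrofa), the somatic cells that line the ovarian follicle and feed the oocyte. One library came from cells given a control siRNA (NC-siRNA), the other from cells given an siRNA against SMAD4, the SMAD protein that carries TGF-beta, activin and BMP signals to the nucleus. Each library holds RNA of 3 individuals mixed in equal amounts, and the labels give neither the age of the animals nor the time after siRNA treatment. With 1 library per group there is no spread between replicates and no test of the condition, and a difference between animals and one between treatments cannot be told apart.

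Angiotensinogen, the product of AGT, is a secreted serpin from which angiotensin I is cut. ACE trims angiotensin I to angiotensin II, which acts on the Gq-coupled AT1 receptor and on the AT2 receptor, while aminopeptidases such as ENPEP shorten it further. The ovary is known to hold a local form of this system, with angiotensin receptors on follicular cells, and angiotensin II has been linked to ovulation, oocyte maturation and follicle atresia.

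The values, called levels below, are in RPKM after upper-quartile scaling of each library. Behind them lay at least 17680952 reads on genes for control siRNA and 17394711 for SMAD4 siRNA. These are the smallest whole reads that the values allow with a divisor assumed for each library. All read numbers and intervals below use such smallest whole reads, and under these divisors the true reads may be more. Each range in parentheses is a 95% counting interval, exact Poisson for a level and Clopper-Pearson for a ratio. Intervals cover counting error only, since these reads carry no molecular identifiers, and they leave out animals and transfections. SMAD4 itself had levels of 85.0 with control siRNA and 47.9 with its own siRNA, a ratio of 0.563 (0.497 to 0.639). Of 13 granulosa markers, 9 were measured, among them FOXL2, GATA4, NR5A1 and INHA each at 132 or above in the control library. FSHR, the FSH receptor, was low, with 4.93 and 3.48, as were HSD17B1 with 9.31 and 17.96 and AMHR2 with 17.2 and 8.49, the last at a ratio of 0.493 (0.266 to 0.886). AMH, INHBB, CYP11A1 and the aromatase CYP19A1 were listed at 0. A listed 0 says little here, because POR and FLNA, which nearly all cells use, were listed at 0 as well.

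All members that could be read held the same order of level in both libraries. ATP6AP2 had the highest level, followed by AGTR1, AGT, LNPEP and ACE, with ENPEP near the floor and AGTR2 listed at 0. The counting intervals of neighbours in this order did not overlap from ATP6AP2 down to LNPEP in either library. Those of LNPEP and ACE overlapped in the control library and stood apart, by a small gap, in the SMAD4 siRNA library. Among the 16609 genes with a mean level of at least 1, ATP6AP2 lay at the 90.6th percentile of the control library, AGTR1 at the 82.2nd, AGT at the 60.7th, LNPEP at the 31.0th and ACE at the 21.9th.

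**Figure D1:**
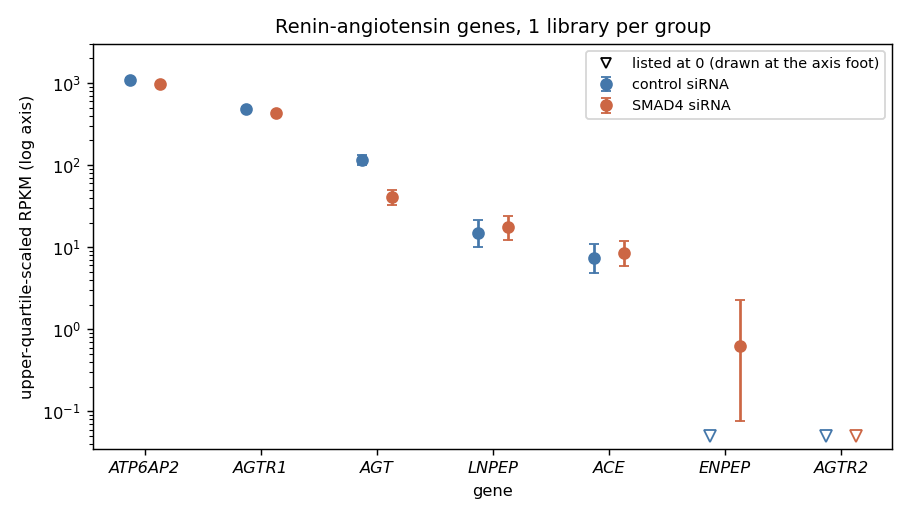
Level of each of the 7 genes (upper-quartile-scaled RPKM, log axis) in the control siRNA library and the SMAD4 siRNA library, with exact Poisson 95% counting intervals. Open triangles mark entries listed at 0. AGT stands at 116 and 40.7 with intervals that do not overlap, while those of ACE and LNPEP overlap between the libraries.

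AGT, the only source of angiotensins, stood at 116 (102 to 132) with control siRNA, read at least 228 times. With SMAD4 siRNA its level was 40.7 (32.7 to 50.2), read at least 88 times. The 2 intervals did not overlap, and the ratio was 0.351 (0.271 to 0.450). Its percentile among measured genes went from 60.7 to 44.7. In the order of log2 ratios among all 9664 entries with at least 100 reads, place 27 from the lowest was AGT and place 228 was SMAD4. Among the 8234 of these with a symbol of their own or from the reference table, the places were 12 and 154.

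The genes whose ratio was most like that of AGT, over these 2 libraries, were RUNX2, PLEKHG2 and ZFYVE28 just below it and FAM71F1, FBLN7 and PLXND1 just above. RUNX2, a transcription factor of bone and of the ovulatory follicle, had a ratio of 0.300 (0.202 to 0.436). PLEKHG2, a guanine nucleotide exchange factor, had 0.314 (0.234 to 0.416) and FBLN7, a fibulin of the matrix, had 0.356 (0.264 to 0.475). PLXND1, a semaphorin receptor, had levels of 113.7 and 40.7, nearly the levels of AGT itself, on at least 246 and 97 reads. The intervals of all 6 overlapped that of AGT, so their order is not resolved by these intervals. PLEKHG2 and PLXND1 are entries without a symbol that were named from the reference table.

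AGTR1, the AT1 receptor that carries most known actions of angiotensin II, was read well and differed little. Its level was 490 (463 to 518) with control siRNA, on at least 1209 reads, and 438 (413 to 463) with SMAD4 siRNA, on at least 1189 reads. The ratio was 0.893 (0.824 to 0.968) as deposited. It was 0.969 (0.894 to 1.05) with both libraries scaled to the same sum of values and 0.9996 (0.922 to 1.08) with both scaled to the same reads on genes, so whether AGTR1 was lower rests on the scaling. AGTR2, the AT2 receptor, was listed at 0 in both libraries.

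The scaling moves every gene alike, by a log2 shift of 0.12 for equal sums and 0.16 for equal reads. At equal reads the median over all measured genes was 0.11 on the log2 scale in place of -0.05. A ratio between members is free of this shift. In the control library the level of AGT was 0.237 of that of AGTR1, and in the SMAD4 siRNA library it was 0.0931. The ratio of AGT relative to AGTR1 was thus 0.392 (0.299 to 0.511), and relative to ATP6AP2 it was 0.398 (0.305 to 0.516). ATP6AP2 relative to AGTR1 was at 0.985 (0.890 to 1.09). The values for AGT describe the low ratio that chose the group and support nothing further.

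ATP6AP2, a membrane receptor of the pathway and an accessory subunit of the vacuolar proton pump, had the highest level of the group. It stood at 1097 (1050 to 1145) with control siRNA, on at least 2044 reads. With SMAD4 siRNA it stood at 965 (923 to 1009), on at least 1981 reads. The ratio of 0.880 (0.827 to 0.937) became 0.955 (0.898 to 1.02) at equal sums and 0.985 (0.926 to 1.05) at equal reads. As for AGTR1, the deposited scale alone puts the interval below 1.

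ACE and LNPEP both had few smallest whole reads. ACE, the carboxydipeptidase that forms angiotensin II and breaks down bradykinin, had 7.43 (4.85 to 10.9) on 26 reads with control siRNA and 8.56 (5.89 to 12.0) on 33 reads with SMAD4 siRNA. The ratio was 1.15 (0.669 to 2.01). LNPEP, the insulin-regulated aminopeptidase that cleaves oxytocin and vasopressin and binds angiotensin IV, had 15.1 (10.1 to 21.7) on 29 reads and 17.5 (12.3 to 24.1) on 37 reads. Its ratio was 1.16 (0.693 to 1.95). Both intervals include 1 under each of the 3 scalings, so a difference of a size within them was not detectable on these smallest whole reads.

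Both genes nevertheless stood apart from AGT. LNPEP relative to AGT was at 3.31 (1.85 to 5.92) and ACE relative to AGT at 3.29 (1.79 to 6.07), which follows from the low ratio of AGT that chose the group. ENPEP, aminopeptidase A, which turns angiotensin II into angiotensin III, was listed at 0 with control siRNA and at 0.628, or 2 reads, with SMAD4 siRNA. For its length 3 reads are worth 1.04 in the first library and 0.942 in the other, so both levels are under that floor and no ratio is given.

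**Figure D2:**
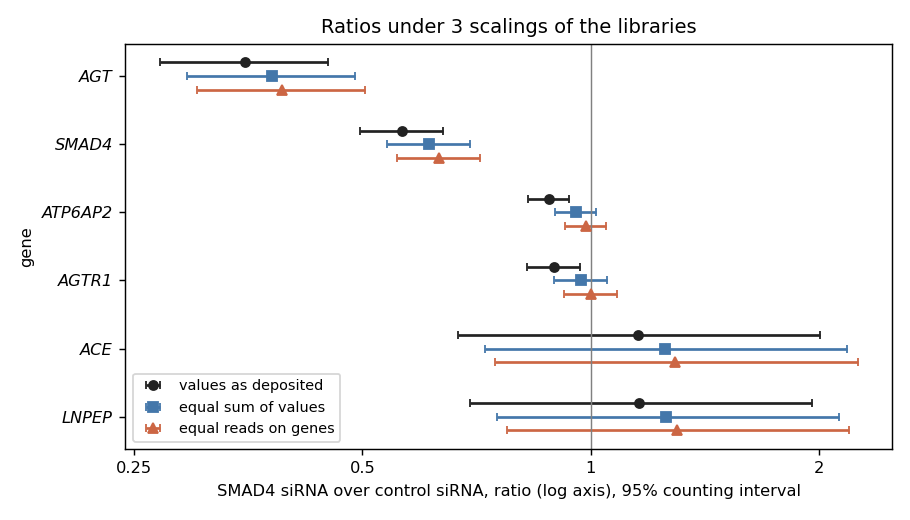
Ratio of SMAD4 siRNA to control siRNA (log axis) for 5 members and SMAD4, with 95% counting intervals, on the deposited scale, with equal sums of values and with equal reads on genes. AGT stays below 1 on all 3 scales (0.351, 0.380 and 0.392), and the intervals of AGTR1 and ATP6AP2 include 1 once the libraries are rescaled.

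Of the 7 members, 5 had a mean level of at least 1 and 3 had at least 100 reads. One of the 5, AGT, was lower by at least 2-fold on the scale of log2 of level + 1, where 6.68% of the 16609 measured genes were, and 0 were higher by as much, against 7.17%. Among the 9664 genes with at least 100 reads, 1.12% were lower and 1.32% higher by 2-fold. All 3 members with at least 100 reads had an interval below 1 as deposited, where 32.4% of such genes did, and at equal reads AGT alone did, against 16.2%. AGT was picked on this contrast, so nothing is read from its count. The median log2 ratio over the 5 was -0.16, set by AGTR1, beside -0.05 over all measured genes. AGT took 6.73% of the summed level of the 7 genes with control siRNA and 2.77% with SMAD4 siRNA, while AGTR1 took 28.4% and 29.8%.

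**Figure D3:**
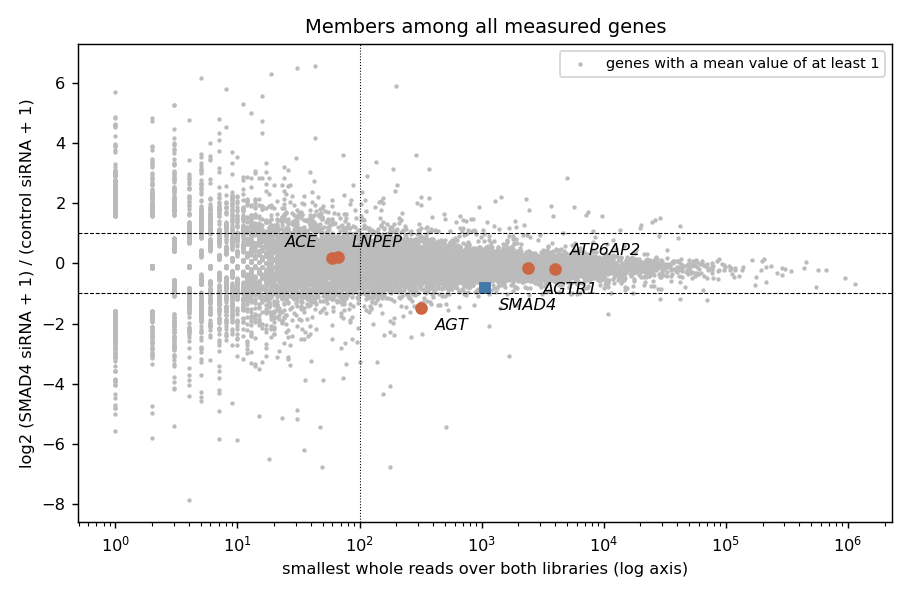
Log2 of (SMAD4 siRNA + 1) over (control siRNA + 1) against the smallest whole reads over both libraries (log axis) for all 16609 genes with a mean level of at least 1, with 5 members and SMAD4 marked. Dashed lines mark 2-fold and the dotted line 100 reads. AGT, at -1.49, lies below the bulk of genes of its read number, and the other 4 lie within it.

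The other genes of the angiotensin pathway were described from a list of 17, of which 15 had an entry, 10 were measured and 9 had at least 100 reads. On the deposited scale 6 of the 9 had an interval below 1 and 2 had one above 1, where 32.4% and 17.6% of genes with as many reads did. At equal reads these counts were 3 and 2, against 16.2% and 36.2%. None of the 10 was past 2-fold, and the median log2 ratio was -0.22, or -0.06 at equal reads. The receptor MAS1 and the proteases CTSD and CTSG were listed at 0 in both libraries. CTSD, the lysosomal cathepsin D, is made by nearly all cells, so these zeros do not show that the genes were silent.

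Among enzymes of this list with at least 100 reads, the lowest ratios were those of CTSA and PREP. NLN, the endopeptidase neurolysin, was lower still at 0.722 (0.435 to 1.19), on 39 and 31 reads and with an interval that includes 1. CTSA, a lysosomal carboxypeptidase that acts on angiotensin I, had levels of 7931 and 6104, a ratio of 0.770 (0.750 to 0.789). PREP, a prolyl endopeptidase that cuts angiotensins after proline, had levels of 832 and 650, a ratio of 0.781 (0.717 to 0.851). AGTRAP, which binds the AT1 receptor and promotes its internalisation, was at 0.829 (0.785 to 0.875). PRCP, a carboxypeptidase that acts on angiotensin II and was chosen after its value was seen, was at 0.840 (0.754 to 0.936).

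A few enzymes were on the higher side. MME, the endopeptidase neprilysin, was read at least 50 and 71 times for levels of 16.1 and 20.7. Its ratio of 1.29 (0.886 to 1.89) has an interval that includes 1. DPP3, a dipeptidyl peptidase that degrades angiotensin II, was at 1.21 (1.10 to 1.35), though a second entry carries its name and its reads may be split. THOP1, thimet oligopeptidase, had levels of 674 and 750, a ratio of 1.11 (1.04 to 1.19). The sizes of all these differences were smaller than that of AGT.

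ENPEP and LNPEP belong to the M1 family of zinc aminopeptidases. Of 10 family members listed, 8 were measured, and the median log2 ratio was -0.13, or 0.03 at equal reads. Of the 6 with at least 100 reads, 4 had an interval below 1 and 1 had one above it, or 1 and 1 at equal reads. Over all genes with as many reads the shares were 32.4% below and 17.6% above, or 16.2% and 36.2% at equal reads. ANPEP, aminopeptidase N, which takes angiotensin III to angiotensin IV, had by far the highest level of the family, with 3964 and 3461, a ratio of 0.873 (0.852 to 0.895). NPEPPS was at 0.807 (0.764 to 0.852), RNPEP, aminopeptidase B, at 0.902 (0.854 to 0.954), RNPEPL1 at 0.919 (0.872 to 0.968) and LTA4H, the leukotriene hydrolase, at 0.912 (0.820 to 1.01). ERAP1, which trims peptides for MHC class I, was at 1.14 (1.04 to 1.25). Its relative ERAP2, next to LNPEP in the genome and named after its value was seen, had 27 and 53 reads and a ratio of 1.78 (1.10 to 2.95).

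The level of the neighbouring genes bears on whether reads of another gene could enter a member. By the order of genes in assembly Sscrofa11.1, used for names alone, no protein-coding gene overlaps any of the 7 members. COG2, a Golgi tethering subunit beside AGT, had a ratio of 0.938 (0.823 to 1.07), and CAPN9 on the other side had 2 and 0 reads. CYB561 beside ACE was at 0.940 (0.822 to 1.07). CPB1, a pancreatic carboxypeptidase next to AGTR1, had 34 and 2 reads.

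Downstream of the receptors, the 20 signalling genes listed had 19 measured, with a median log2 ratio of -0.13, or 0.04 at equal reads. Of 12 with at least 100 reads, 4 had an interval below 1 and 2 above it, or 3 and 3 at equal reads, beside 32.4% and 17.6%, or 16.2% and 36.2%, of all such genes. The share below 1 as deposited was thus near that of all genes. NOX4, an NADPH oxidase that angiotensin II is known to engage in muscle and kidney, had levels of 70.7 and 47.4, a ratio of 0.670 (0.552 to 0.813). GNAQ, the G protein alpha subunit that AT1 couples to, was at 0.681 (0.458 to 1.01) on at least 64 and 48 reads. Its close relative GNA11, chosen after its value was seen, had a far higher level, with 1798 and 1585, a ratio of 0.881 (0.824 to 0.943). GRK5, a kinase that phosphorylates active receptors, was at 0.798 (0.733 to 0.868). At the other end ITPR3, a calcium release channel, was at 1.20 (1.12 to 1.28), ARAP1 at 1.10 (1.05 to 1.16) and ROCK1 at 1.08 (0.774 to 1.51).

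In that list 1 gene was past 2-fold in each direction, and both were named after their values were seen. MTUS1, whose product binds the AT2 receptor, had at least 15 reads with control siRNA and 1 with SMAD4 siRNA, a ratio of 0.0605 (0.00144 to 0.394). ITPR2 had at least 2 and 6 reads, a ratio of 2.72 (0.487 to 27.6), though another entry carries its name and its reads may be split. On these smallest whole reads neither ratio can be sized, and the true reads may be more.

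Regulators known to bind the AGT promoter went both ways. Of 13 listed, 11 were measured, 7 of them below 0 with a median log2 ratio of -0.32, or -0.16 at equal reads. Of the 9 with at least 100 reads, 5 had an interval below 1 and 2 above it, or 3 and 4 at equal reads (all such genes: 32.4% and 17.6%, or 16.2% and 36.2%). CEBPB, an acute-phase factor, had levels of 343 and 211, a ratio of 0.614 (0.514 to 0.732). STAT3, which carries cytokine signals, was at 1870 and 1378, a ratio of 0.737 (0.713 to 0.763). USF2 was at 1.22 (1.14 to 1.30), CEBPD at 1.19 (1.09 to 1.30) and USF1 at 1.01 (0.944 to 1.08). HNF4A had 2 and 0 reads. No binding was measured, so nothing ties these levels to AGT.

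The vacuolar proton pump, which ATP6AP2 helps to assemble, was the largest list, with 14 of 21 subunits measured and a median log2 ratio of -0.18, or -0.02 at equal reads, beside -0.18 and -0.02 for ATP6AP2 itself. Of 13 with at least 100 reads, 9 had an interval below 1 and 1 above it, or 5 and 2 at equal reads, where 32.4% and 17.6% of all such genes did as deposited and 16.2% and 36.2% at equal reads. ATP6V1A, the catalytic subunit, had levels of 1004 and 601, a ratio of 0.598 (0.556 to 0.644). ATP6V1H, a regulatory subunit, was at 0.678 (0.636 to 0.723) and ATP6AP1, the other accessory subunit, at 0.687 (0.592 to 0.796). ATP6V0C, which forms the proton-carrying ring, was at 1.10 (1.07 to 1.14), ATP6V1C1 at 1.04 (0.891 to 1.22) and ATP6V0A1 at 0.978 (0.774 to 1.24).

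The kinin and mineralocorticoid systems, which are tied to angiotensin, gave few genes with reads. Of 8 kallikrein-kinin genes, 7 had an entry and 5 of these were at 0 in both libraries. BDKRB1, the inducible kinin receptor, had levels of 215 and 305 on 87 and 136 reads, and a ratio of 1.42 (1.08 to 1.88), and CPD, a carboxypeptidase, was at 1.15 (1.02 to 1.29). Of 9 mineralocorticoid genes 4 were measured, and SGK1, a kinase induced by corticosteroids, had most reads, with a ratio of 0.701 (0.641 to 0.765). The clade A serpins, the family to which angiotensinogen belongs, had 4 entries, of which 3 were listed at 0 and SERPINA6 had 2 and 1 reads.

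Some markers of other cells were lower with SMAD4 siRNA, as AGT was, and others were not. Of 9 pancreatic acinar genes, a list chosen with earlier results known, 8 were measured, all 8 were below 0 and 7 were lower by at least 2-fold, where 6.68% of all measured genes were. Because the list was chosen in that way, nothing is read from this count. The summed level of the list was 1075 against 174. PNLIP and PRSS2 had no reads with SMAD4 siRNA, so they passed the minimum on the mean level through the control library alone. PRSS2 stood at 237 there on only 4 smallest whole reads, and this level is part of the summed 1075. Only CTRC of that list was at 0 in both libraries, while 3 had at least 100 reads: CPA1 at 0.0199 (0.00989 to 0.0360), CTRB2 at 0.280 (0.196 to 0.393) and CEL at 0.809 (0.667 to 0.981). In bulk RNA, fewer cells of a type and less RNA per cell cannot be told apart. The reads do not show where the RNA of these genes came from, and their part in the ratio of AGT was not tested.

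Of 8 smooth muscle and fibroblast markers, 7 were measured and 5 of them were below 0, with a summed level of 736982 against 500907. The median log2 ratio was -0.14, or 0.02 at equal reads. Of the 7, 4 had an interval below 1 and 2 had one above 1, or 3 and 3 at equal reads. Over all genes with at least 100 reads, the shares were 32.4% and 17.6%, or 16.2% and 36.2% at equal reads. ACTA2, which made up most of the summed level, was at 0.622 (0.619 to 0.624). DES was at 1.16 (1.11 to 1.22) and COL1A1 at 1.06 (1.01 to 1.11), and MYH11 was listed at 0. Another entry carries the name of COL1A1, and another that of MYH11, so the reads of both genes may be split. The part of the smooth muscle and fibroblast markers in the ratio of AGT was not tested either. Of 7 endothelial markers 5 were measured, with TEK listed at 0 and a summed level of 452 against 352. The pair with at least 100 reads were PECAM1 at 0.875 (0.793 to 0.964), which spans 1 at equal reads (0.888 to 1.08), and ERG at 0.582 (0.442 to 0.763), which stays below 1 there (0.495 to 0.853). On fewer reads, KDR was at 2.36 (0.790 to 8.46), CLDN5 at 1.36 (0.433 to 4.65) and VWF at 0.778 (0.216 to 2.71). These intervals all include 1. The part of the endothelial markers in the ratio of AGT was not tested. Hepatocytes are the main source of angiotensinogen in the body. Of 8 hepatocyte markers, ALB had 1 and 2 reads, FGB 2 and 1 and TF 1 and 0, and APOB, TTR and FGA were listed at 0. APOA1 was measured well, with levels of 497 and 504 and a ratio of 1.01 (0.883 to 1.16).

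**Figure D4:**
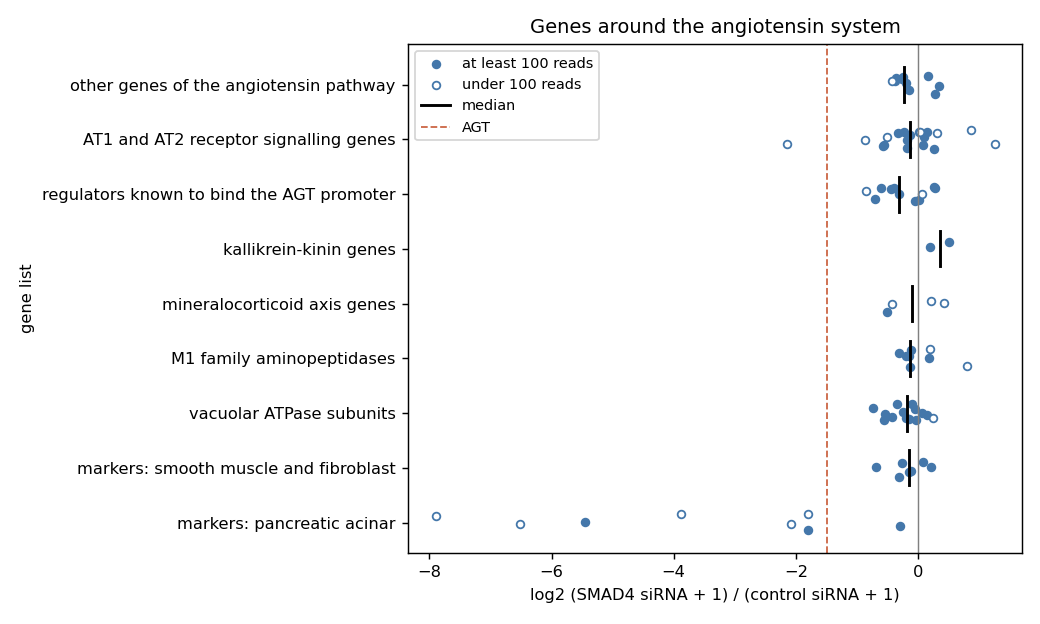
Log2 of (SMAD4 siRNA + 1) over (control siRNA + 1) for the measured genes of 7 lists around the angiotensin system and of 2 marker lists, filled where both libraries together hold at least 100 reads. Black bars are list medians, left out for the acinar list because some of its genes have no reads in the SMAD4 siRNA library, where the pseudocount sets their place. The dashed line is AGT at -1.49, which no gene of the 7 lists with at least 100 reads reaches.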

How the data were processed

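Libraries from pooled total RNA of granulosa cells were prepared by an Ion total RNA protocol for an Ion Torrent Proton instrument, per the labels. The authors deposited RPKM values with upper-quartile scaling, per the file names. Not given in the sources used here are the aligner, counter, build and annotation.

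From the deposited values, whole reads were found with divisors of 890 and 980, whose ratio of 0.908163 is the commonest ratio between libraries (665 genes). All 18428 genes above 0 gave whole reads at a length of up to 40000 bases (relative tolerance 2e-09, absolute 1e-06). Smallest whole reads are lower bounds under these divisors. Differences are plain ratios or log2 ratios with a pseudocount of 1. Intervals came from scipy 1.17.1. The steps were run on simulated data, where interval coverage used the drawn reads and not the recovered ones. The simulation therefore does not test the intervals as given here. No test between conditions was possible.

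The members and lists were chosen with earlier results of these data known. Named genes are the 7 members, SMAD4, 3 list members at each end by log2 ratio with at least 100 reads (all where fewer than 7), and 3 genes on each side of AGT. Some genes that the rule takes are left out of the text. Marker genes and neighbours are given besides. Of 162 list and marker genes, 147 had an entry, 138 under the table's own symbol and the rest through the reference table. Granulosa, theca, endothelial, leukocyte, hepatocyte, smooth muscle and acinar markers were listed. Alternatives covered pseudocounts, scaling, minimums and fold thresholds.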

Additional observations from a re-analysis of the deposited data

How the results depend on the processing

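AGT stayed lower by at least 2-fold under all 7 alternatives, with log2 ratios from -1.51 to -1.16, and ACE and LNPEP stayed inside their counting intervals under all of them. AGTR1 was at -0.16, against -0.044 with each library rescaled to a sum of 1000000. On plain ratios, chosen after seeing the data, it was at -0.045 with equal sums and -0.00052 with equal reads. ATP6AP2 was at -0.18, against -0.065, -0.066 and -0.022. SMAD4 was at -0.81, against -0.58 after rescaling to 1000000 and -0.71 as a plain ratio with equal sums. Rescaling to 1000000 lowers all values, so the pseudocount of 1 weighs more there.

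Genes lower by 2-fold numbered 1110, against 437 with a pseudocount of 5, 112 after rescaling, 546 at a mean of at least 5, 108 with at least 100 reads, 2277 at 1.5-fold, 351 at 4-fold and 3569 by an interval below 1. Genes higher numbered 1191, against 466, 208, 572, 128, 2245, 378 and 2113. Stricter minimums and thresholds give fewer genes by construction, and a pseudocount of 1 weighs more on the rescaled values. The split by interval among genes with at least 100 reads turned from 3135 lower and 1697 higher to 1895 and 2980 at equal sums and to 1565 and 3502 at equal reads.

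The kinin median was at 0.35, against 0.52 with equal reads. The medians for receptor signalling, M1 aminopeptidases and mineralocorticoid genes crossed 0 under at least 1 alternative (highest 0.04, 0.03 and 0.06), and those for the angiotensin pathway, the AGT regulators and the vacuolar ATPase stayed below 0. No paired analysis was possible because each group has 1 library.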

Other observations

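Theca and leukocyte markers rested on a few genes. Of 6 theca markers 3 were listed at 0 (CYP17A1, LHCGR and INSL3). The 3 measured summed to 41.0 in the control and 45.7 in the SMAD4 siRNA library. PTCH1 was read at least 217 and 218 times, STAR at least 6 and 15 times and GLI1 at least 3 and 5 times. The 6 leukocyte entries summed to 599.8 and 575, nearly all of it CD14, which was read at least 809 and 871 times. Of the 4 leukocyte markers measured, 3 were below 0 and 1 above. CD14 was at 0.978 (0.888 to 1.08). CD79A was at 0.267 (0.0770 to 0.754), on at least 17 and 5 reads. CSF1R was at 0.341 (0.0582 to 1.42) and ITGAM at 2.04 (0.570 to 9.08), both on few reads. The part of the leukocyte markers in the ratio of AGT was not tested.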
